A study of Rattus norvegicus with 24 samples.

Results

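Matrix metalloproteinases (MMPs), the related ADAM and ADAMTS proteases and their inhibitors were examined in cadaveric rat liver, freshly isolated hepatocytes and recellularized liver constructs. The members were the array probes whose gene symbol is Mmp, Timp, Adam or Adamts followed by a number, or Reck. This rule took 52 probes for 50 genes among the 22523 probes and 13337 named genes of the array, namely 20 MMPs, 11 ADAMTS proteases, 15 ADAMs and 4 inhibitors. RNA was hybridized to RatRef-12 BeadChips, and all liver cells and tissue came from adult Sprague Dawley rats. Cadaveric liver (n = 4) was sampled at harvest and served as the reference. Isolated hepatocytes (n = 4) were viable cells recovered on Percoll after collagenase perfusion of the liver, with RNA taken at once. The constructs were caudate lobes of rat liver that had been stripped of cells with detergent and DNase, reseeded through the portal vein with rat liver cells from the same isolation procedure, and sampled after 2 days (n = 4), 15 days (n = 4) or 28 days (n = 3) on the matrix. All constructs were perfused with Williams' Medium E holding fetal bovine serum, insulin, dexamethasone and antibiotics, and no group received a further treatment. The labels do not say whether replicates came from separate donor rats, so a p-value here reflects how far these samples vary among themselves, which may in part be technical.

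MMPs are zinc-dependent enzymes that cut collagens, proteoglycans and other matrix proteins, and most are secreted as inactive proenzymes. ADAMs are mostly membrane-bound and release the outer parts of cell surface proteins, while ADAMTS enzymes are secreted and cut proteoglycans or trim procollagens. TIMPs bind the active site of these enzymes, and RECK is an inhibitor anchored in the cell membrane. In injured liver, activated stellate cells are a well-known source of both collagen and TIMP1.

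The 19 samples gave 24 arrays, since 5 constructs were hybridized on 2 arrays each and those were averaged. Values are background-corrected, quantile-normalized log2 signals, on which 1 unit is a 2-fold difference. A level is compared only within a probe, because probes differ in brightness. A probe was called detected on an array when its detection p-value was under 0.05, which held for a median of 43.2% of probes in isolated hepatocytes and 45.8 to 49.8% in the other groups. The lowest detected signals lay between 4.86 and 5.23, so values below about 5 are at background. The 4 day 15 constructs fell into pairs over the whole array. Replicates 1 and 2, and likewise replicates 3 and 4, correlated at 0.995 or more, whereas r across the pairs was 0.982 to 0.989. The main values that rest on day 15 are therefore also given for each pair alone, as is any printed day 15 call that 1 pair alone did not give. This check was added after the data were seen. Day 2 constructs paired in the same way with a narrower gap. Within replicates 1 and 2 and within replicates 3 and 4 r was 0.996, and across them 0.992 to 0.994. The day 2 pairs were not examined alone.

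Of the 50 genes, 29 passed the filter of detection in at least 3 of the 19 samples. All 4 inhibitors passed, as did 11 of 20 MMPs, 7 of 11 ADAMTS proteases and 7 of 15 ADAMs. Among the 21 others, 17 were detected on no array of any group and lay between 4.3 and 5.22. These were the interstitial collagenase Mmp1, the neutrophil collagenase Mmp8, the membrane-type Mmp15 and Mmp17, the enamel protease Mmp20, Mmp21, Mmp27, Adamts3, Adamts14, Adamts15, Adamts19, Adam2, Adam3a, Adam4l1, Adam11, Adam19 and Adam34. The remaining 4 were detected on 1 to 3 arrays. Among them the macrophage elastase Mmp12 was detected on 2 of 4 cadaveric liver arrays, with values of 5.23, 5.31, 4.99 and 4.70, on 1 of 6 day 2 arrays and on no later array. Matrilysin, Mmp7, was detected on 1 of 5 day 15 arrays and 1 of 5 day 28 arrays, with a highest value of 5.10, while Adam1a and Adam26a were each detected on 1 array.

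**Figure D1:**
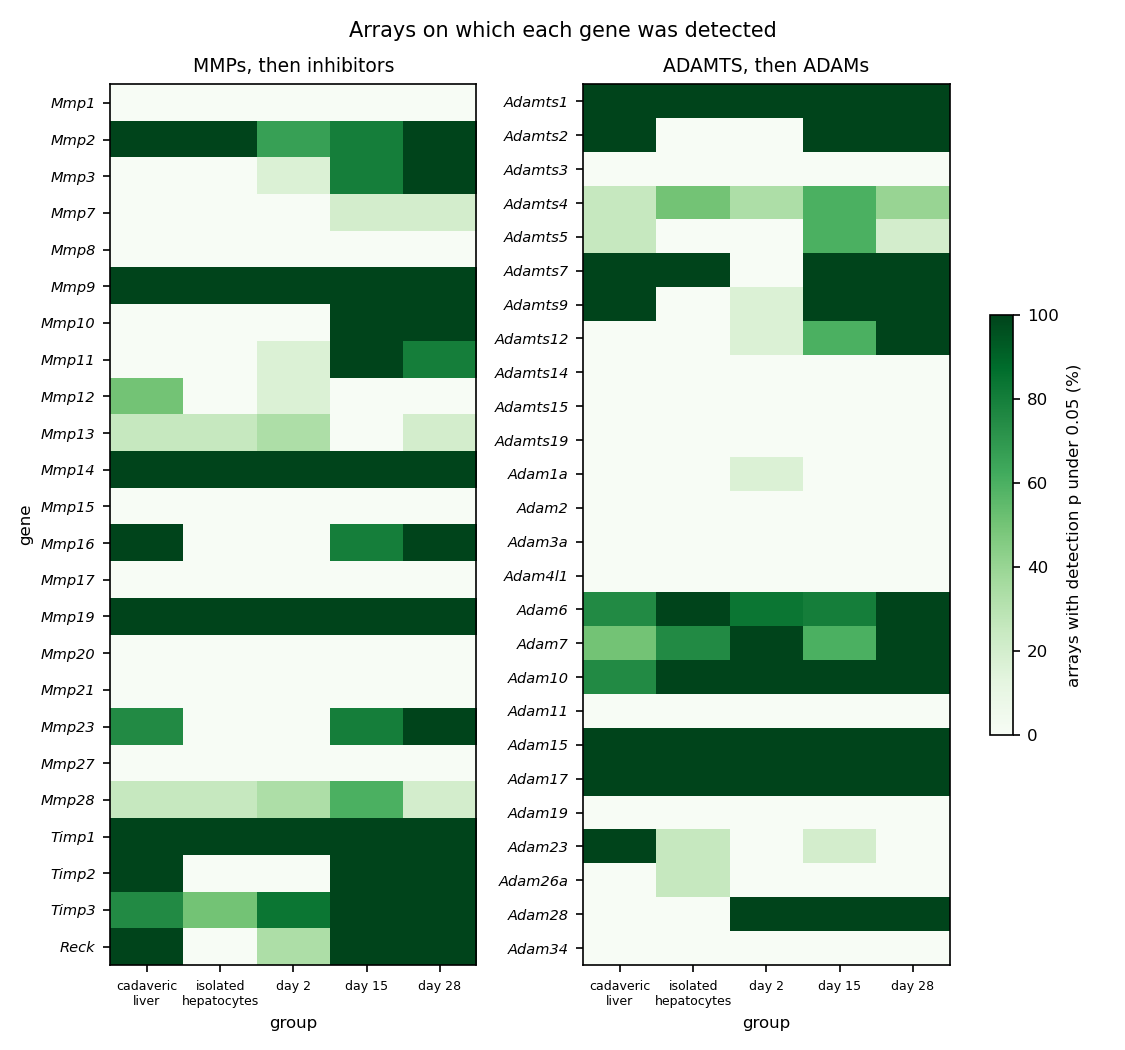
Share of arrays (%, colour scale) on which each of the 50 genes (vertical axis) was detected at a detection p under 0.05 in the 5 groups (horizontal axis); 17 genes are blank in every group. Mmp10 was detected on none of the arrays of cadaveric liver, isolated hepatocytes and day 2 and on all 5 arrays of day 15 and all 5 of day 28.

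In the rat genome 10 MMP genes lie close together on chromosome 8, in the order Mmp13, Mmp12, Mmp1b, Mmp3, Mmp1, Mmp10, Mmp8, Mmp27, Mmp20 and Mmp7 (RefSeq, GRCr8). Of these, 9 were on the array and 3 passed the filter, Mmp13, Mmp3 and Mmp10. Promoters of 34 of the 50 genes could be matched by symbol to the RefSeq table. In the 250 bases upstream of the start, the AP-1 motif TGANTCA, which reads the same on both strands, was present in 8 of the 34 genes and in 6.34% of all 33469 promoters. The TATA motif TATAAA, searched on the gene's strand, was present in 11 of the 34 and in 8.06% of all promoters. No AP-1 match overlapped a TATA match. Of the 9 chromosome 8 genes 7 held both motifs, against 0 of the 25 other members with a promoter. A match is a description of the sequence and says nothing about binding. The last 120 bases before the start are shown for the 3 genes of the run that passed the filter and for Mmp12, 5′ to 3′ on the plus strand, with AP-1 and TATA matches in capitals, because these neighbours share the same motif pair but differ in where they were detected.
Mmp3, chr8:12925161-12925280: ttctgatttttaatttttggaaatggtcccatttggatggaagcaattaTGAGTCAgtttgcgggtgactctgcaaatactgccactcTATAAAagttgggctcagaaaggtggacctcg
Mmp10, chr8:12974587-12974706: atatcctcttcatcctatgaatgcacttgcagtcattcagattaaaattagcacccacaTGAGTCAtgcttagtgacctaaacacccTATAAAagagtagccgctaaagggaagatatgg
Mmp12, chr8:12866532-12866651: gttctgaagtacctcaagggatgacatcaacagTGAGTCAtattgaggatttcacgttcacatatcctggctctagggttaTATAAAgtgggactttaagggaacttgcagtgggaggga
Mmp13, chr8:12782709-12782828: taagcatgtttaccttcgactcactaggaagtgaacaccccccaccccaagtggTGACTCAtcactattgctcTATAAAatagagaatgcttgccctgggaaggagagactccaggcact
The first base of the AP-1 match lay 71 bases before the start in Mmp3, 61 in Mmp10, 87 in Mmp12 and 66 in Mmp13. Mmp3 and Mmp10 were higher than in liver on days 15 and 28, whereas Mmp12 was detected on 2 cadaveric liver arrays and 1 day 2 array, and Mmp13 on 5 arrays from 4 of the 5 groups.

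Groups were compared with limma in 1 model over all 19 samples and 8825 genes, with Benjamini-Hochberg adjustment over all of them and a threshold of 0.05. The 4 comparisons with cadaveric liver share its 4 samples. In isolated hepatocytes 2 of the 29 tested members were higher and 9 lower than in cadaveric liver, where 22.7% of all genes tested were called. On day 2, 2 were higher and 11 lower (all genes, 60.6%, with 26.1% lower). On day 15, 11 were higher and 4 lower (all genes, 58%, with 26.5% lower). With day 15 replicates 1 and 2 alone 17 members were called, and with replicates 3 and 4 alone 13. With replicates 3 and 4 alone, Timp1, Timp2, Mmp14, Mmp23, Adamts1 and Adamts2 were no longer called higher and Mmp9 no longer lower. Reck, Mmp16, Adamts7 and Adam17 were then called lower and Adamts5 higher. On day 28, 13 were higher and 4 lower (all genes, 57.1%). The share of members called on day 28, 58.6%, was thus near that of all genes. The share called higher was 44.8%, beside 29.5% of all genes, and the share called lower was 13.8%, beside 27.6%. Among those called higher, Mmp10, Mmp11 and Adamts12 passed the filter only through day 15 and day 28 samples, and Mmp3 and Adam28 only through construct samples. Their inclusion thus depended on groups in which they were high. Adam23, called lower, passed only through liver and hepatocyte samples. Members called with no sample overlapping with liver made up 34.5% of the 29 in hepatocytes, 44.8% on day 2, 34.5% on day 15 and 55.2% on day 28, beside 17.7%, 54.2%, 48.8% and 52.9% of all genes.

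Between construct days the calls ran almost entirely upward, a direction that was in part fixed beforehand. Timp2, Mmp10, Mmp16, Mmp23, Adamts2, Adamts5, Adamts7 and Adam23 were detected on no day 2 array and could hardly fall from there. Mmp3, Mmp11, Adamts9 and Adamts12 were detected on 1 of 6 day 2 arrays and had little more room. Mmp10, Mmp11 and Adamts12 passed the filter only through the later constructs. From day 2 to day 15, 13 members rose and 0 fell, while 20.2% of all genes rose and 24.5% fell (44.6% called). With day 15 replicates 1 and 2 alone 14 members were called between these days, and with replicates 3 and 4 alone 9. From day 15 to day 28, 8 rose and 0 fell, while 5.46% of all genes rose and 4.95% fell (10.4% called). From day 2 to day 28, 13 rose and 1, Mmp9, fell, while 20.6% of all genes rose and 30.9% fell (51.5% called). The limma F test over the 3 days called 15 of the 29, with 3 of 4 inhibitors, 6 of 11 MMPs, 5 of 7 ADAMTS proteases and 1 of 7 ADAMs (all genes, 53.7%). The median difference of the 29 members from day 2 to day 28 was 0.31, beside -0.13 over all genes. The fall of Mmp9 (adjusted p = 0.0235) was not called without day 2 replicate 4 (adjusted p = 0.0824) or without day 28 replicate 1 (0.0584) or 2 (0.0857). Members called in either direction without overlap made up 44.8% of the 29 for day 15 over day 2, 17.2% for day 28 over day 15 and 44.8% for day 28 over day 2, beside 38.1%, 8.97% and 48.5% of all genes. The count for day 15 to day 28 depended on single samples. It was 3 without day 15 replicate 3 or without day 28 replicate 1, 4 without day 15 replicate 4 and 5 without day 28 replicate 2. It was 2 with day 15 replicates 1 and 2 alone and 11 with replicates 3 and 4 alone.

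**Figure D2:**
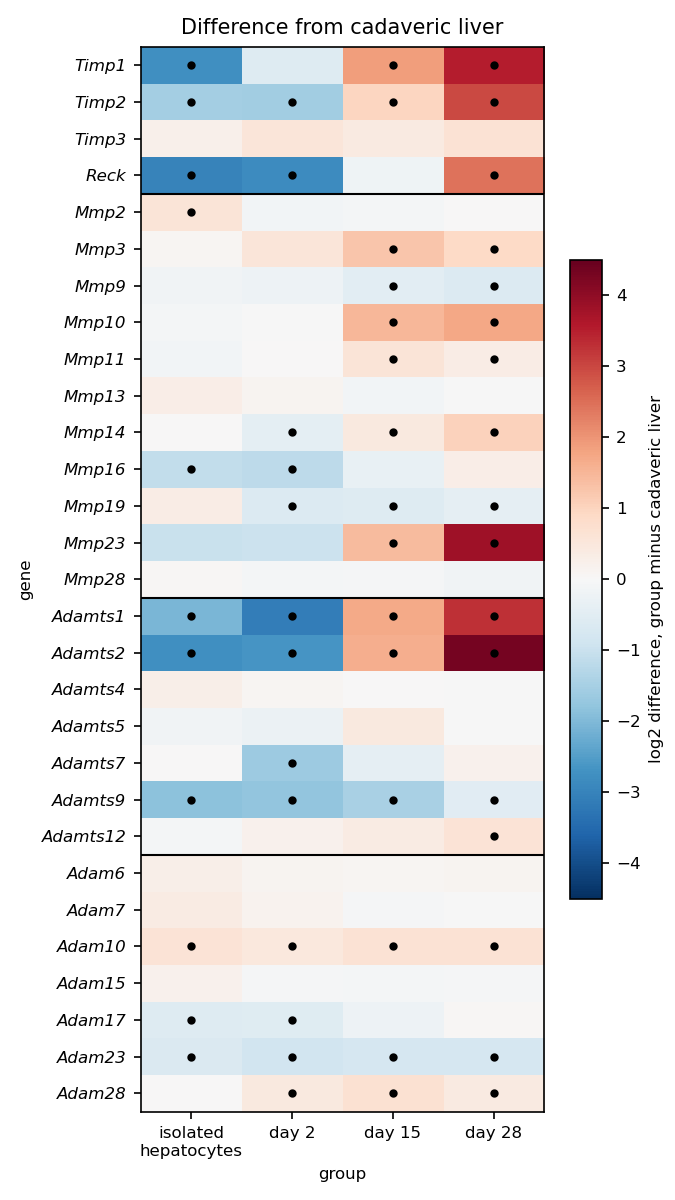
Log2 difference from cadaveric liver (colour scale) of the 29 tested members (vertical axis; inhibitors, MMPs, ADAMTS and ADAMs from top to bottom) in isolated hepatocytes and constructs (horizontal axis), with a dot where limma's adjusted p was under 0.05. The largest differences are those of Adamts2 (4.30), Mmp23 (3.83) and Timp1 (3.54) on day 28.

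Among the inhibitors, Timp1, Timp2 and Reck were lower in isolated hepatocytes than in cadaveric liver and higher than in cadaveric liver on day 28, while Timp3 passed the test in no comparison. Timp1, a secreted inhibitor of most MMPs, had log2 signals of 8.45, 8.56, 8.95 and 9.12 in cadaveric liver and of 6.11, 6.08, 5.74 and 6.04 in isolated hepatocytes. In constructs it read 8.61, 8.92, 7.55 and 7.75 on day 2, 11.53, 12.02, 9.83 and 9.25 on day 15 and 12.64, 12.30 and 11.98 on day 28. Every hepatocyte sample was below every liver, and every day 15 and day 28 construct was above every liver. Timp1 was 6.85-fold lower in hepatocytes (log2 difference -2.78 ± 0.45 SE, limma adjusted p = 0.000168) and 11.6-fold higher on day 28 (3.54 ± 0.49, adjusted p = 6.37e-06) than in cadaveric liver. On day 2 the difference was -0.56 (95% interval -1.52 to 0.39, adjusted p = 0.306). On day 15 it was 1.89 (adjusted p = 0.00159). Replicates 1 and 2 alone gave 3.01 there and replicates 3 and 4 alone gave 0.77, with an adjusted p of 0.0539.

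Timp2, an inhibitor that also takes part in the activation of pro-MMP2 by MMP14, was detected in every liver (6.04, 6.30, 6.51 and 6.65) and on none of the 4 hepatocyte or 6 day 2 arrays. It then read 8.30, 8.10, 6.60 and 6.41 on day 15 and 9.76, 9.37 and 8.94 on day 28. All 3 day 28 constructs were above every other sample. Because its probe was at background in 2 groups, folds against those are lower bounds, taken against the lowest signal detected on each array. Timp2 was at least 2.31-fold lower in hepatocytes (adjusted p = 0.00223) and at least 2.55-fold lower on day 2 (adjusted p = 0.000394) than in liver. On day 28 it was 7.91-fold higher than in liver (2.98 ± 0.35, adjusted p = 9.09e-07) and at least 20.1-fold higher than on day 2 (adjusted p = 1.88e-08). The day 15 difference from liver was 0.98 (adjusted p = 0.016), which became 1.82 with replicates 1 and 2 alone and 0.13 with replicates 3 and 4 alone (adjusted p = 0.634). The rise from day 15 to day 28 passed the test with either pair alone, at 1.16 (adjusted p = 0.00628) and 2.85 (adjusted p = 6.02e-08).

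Reck, the membrane-anchored inhibitor of MMP2, MMP9 and MMP14, ran along the same course. Its signals were 7.20, 7.51, 7.82 and 8.06 in liver, 4.60 to 4.76 in hepatocytes with no array detected, and 4.65, 4.46, 4.91 and 5.21 on day 2 with 2 of 6 arrays detected. They were 8.36, 8.75, 6.60 and 6.18 on day 15 and 10.06, 9.99 and 10.19 on day 28. The day 15 constructs lay on both sides of the livers, and the day 28 constructs lay above all other samples. Reck was at least 5.57-fold lower in hepatocytes (adjusted p = 1.9e-05), also lower on day 2 (adjusted p = 6.64e-06, with no fold given as most arrays were at background) and 5.39-fold higher on day 28 (2.43 ± 0.43, adjusted p = 0.000107) than in liver. The day 15 difference from liver was -0.18 with all 4 constructs (adjusted p = 0.729), 0.90 with replicates 1 and 2 alone (adjusted p = 0.00182) and -1.26 with replicates 3 and 4 alone (adjusted p = 0.000108). A second Reck probe, dimmer and at 5.71 or less in all samples, passed the test in no comparison. On day 28 it gave -0.21 (95% interval -0.49 to 0.08), so the change rests on 1 of the 2 probes.

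Timp3, which binds to the matrix and also inhibits ADAM17, read 5.40, 4.89, 5.69 and 5.05 in liver and 5.09, 4.88, 6.21 and 5.81 in hepatocytes. In constructs it read 5.10, 5.42, 6.14 and 6.59 on day 2, 5.71, 5.47, 5.77 and 5.69 on day 15 and 6.20, 5.80 and 5.73 on day 28. The groups overlapped except that all day 28 constructs were above all livers. The day 28 difference was 0.65 (95% interval -0.03 to 1.33, adjusted p = 0.0957), an interval that reaches past a 2-fold rise. In a limma model that also held replicate number as a block, it was 0.73 and was called (adjusted p = 0.0396). That block used the numbers of the sample records, which the intensity table does not always match.

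**Figure D3:**
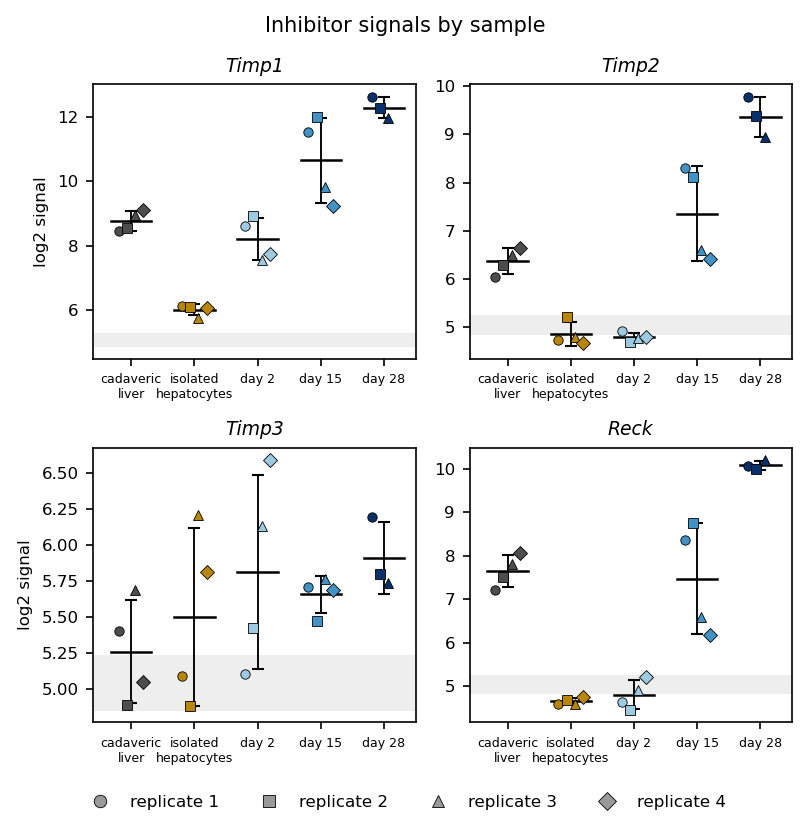
Log2 signal (vertical axis, scaled to each gene) of the 4 inhibitors in every sample of the 5 groups (horizontal axis); symbols are samples, black lines are group means with SD bars (n = 3 or 4), and the grey band spans the lowest detected signal of the arrays, 4.86 to 5.23. On day 15, replicates 1 and 2 sit above replicates 3 and 4 for Timp1, Timp2 and Reck.

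Among the MMPs, 5 were higher on day 28 than in cadaveric liver (Mmp3, Mmp10, Mmp11, Mmp14 and Mmp23) and 2 were lower (Mmp9 and Mmp19). The same 7 genes were called in these directions on day 15. Mmp14, the membrane-type collagenase that activates pro-MMP2, read 10.94 to 11.07 in liver and 10.94 to 11.13 in hepatocytes. In constructs it read 10.44, 10.61, 10.42 and 10.73 on day 2, 11.60, 11.87, 11.04 and 11.25 on day 15 and 12.36, 11.98 and 11.79 on day 28. All day 2 constructs were below and all day 28 constructs above every liver. It was 1.36-fold lower on day 2 (-0.45 ± 0.15, adjusted p = 0.0155) and 2.07-fold higher on day 28 (1.05 ± 0.16, adjusted p = 2.08e-05) than in liver, and 2.82-fold higher on day 28 than on day 2 (adjusted p = 6.81e-07). Its day 15 difference from liver, 0.45 (adjusted p = 0.0159), was 0.15 with replicates 3 and 4 alone (adjusted p = 0.387) and lost the call without replicate 2 (adjusted p = 0.0724).

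Mmp23, a membrane-bound member of the family, was detected in 3 of 4 livers (4.70, 5.45, 5.03 and 6.37) and on no array of hepatocytes or day 2. On day 15 it read 8.33 and 8.48 in replicates 1 and 2 and 5.47 and 4.90 in replicates 3 and 4. It read 9.41, 9.19 and 9.05 on day 28, above every other sample. The day 28 level was 14.2-fold that of liver (3.83 ± 0.64, adjusted p = 4.87e-05) and at least 18.2-fold that of day 2 (adjusted p = 6.66e-06). On day 15 the difference from liver was 1.41 (adjusted p = 0.0483). With replicates 1 and 2 alone it was 3.02, with replicates 3 and 4 alone it turned to -0.20 (adjusted p = 0.615), and leaving out any of 16 samples ended the call (adjusted p = 0.0552 to 0.198). Mmp16, another membrane-type MMP, read 5.64 to 6.18 in liver, was detected on no array of hepatocytes or day 2 and read 5.65, 6.47, 5.01 and 4.96 on day 15 and 6.76, 5.89 and 5.77 on day 28. It was at least 1.61-fold lower in hepatocytes (adjusted p = 0.00416) and at least 1.78-fold lower on day 2 (adjusted p = 0.000783) than in liver. From day 2 to day 28 it rose at least 2.16-fold (adjusted p = 0.000337), and on day 28 it differed from liver by 0.28 (adjusted p = 0.415).

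The stromelysins, of which MMP3 and MMP10 cut proteoglycans and activate other pro-MMPs, were at background outside the constructs. Mmp10 (stromelysin 2) read 4.36 to 4.53 in liver and hepatocytes and 4.35 to 4.67 on day 2, with no array detected. It read 5.94, 7.30, 5.67 and 5.13 on day 15 and 6.40, 6.13 and 6.15 on day 28, with every array detected. Against liver it rose at least 2.02-fold by day 15 (adjusted p = 0.000149) and at least 2.35-fold by day 28 (adjusted p = 8.62e-05), and the day 15 call held with either pair alone (adjusted p = 8.29e-07 and 3.29e-05). Mmp3 (stromelysin 1) was detected on no array of liver or hepatocytes, on 1 of 6 on day 2 (4.91, 5.51, 4.36 and 4.75), on 4 of 5 on day 15 (5.76, 6.62, 5.42 and 4.54) and on all 5 on day 28 (5.51, 5.34 and 4.94). Against liver it rose at least 1.51-fold by day 15 (adjusted p = 0.00181) and at least 1.2-fold by day 28 (adjusted p = 0.0234). The day 28 call was lost without replicate 1 (adjusted p = 0.0921) or replicate 2 (adjusted p = 0.0646) of that day. Mmp11 (stromelysin 3) was likewise undetected in liver and hepatocytes and read 5.20, 5.04, 5.24 and 5.40 on day 15, at least 1.17-fold above liver (adjusted p = 0.000244). On day 28 it read 5.10, 4.77 and 4.98, too near background for a fold, and that call (adjusted p = 0.0348) was lost when any of 5 samples was left out (adjusted p up to 0.158).

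The gelatinases and the remaining MMPs changed little. Mmp9 (gelatinase B) read 5.80, 5.86, 5.65 and 5.53 in liver, 5.11, 5.05, 5.30 and 5.41 on day 15 and 5.10, 5.02 and 5.19 on day 28. All construct values of those days were below all livers, by 0.49 (adjusted p = 0.00228) and 0.60 (adjusted p = 0.000803) on the log2 scale. With day 15 replicates 3 and 4 alone the first of these was -0.36 and not called (adjusted p = 0.0559). Mmp2 (gelatinase A), the target of the MMP14 and TIMP2 activation system, was 1.49-fold higher in isolated hepatocytes (5.59 to 6.01) than in liver (5.05 to 5.45), with an adjusted p of 0.0115. It passed the test in no construct comparison, and on day 28 (5.30, 5.08 and 5.43) it differed from liver by 0.03 (95% interval -0.32 to 0.39). Mmp19 read 7.24 to 7.44 in liver and was lower in constructs, at 6.35, 6.80, 6.73 and 6.88 on day 2 (-0.63, adjusted p = 0.000273), 6.61 to 6.87 on day 15 (-0.59, adjusted p = 0.000539) and 6.96, 6.67 and 7.11 on day 28 (-0.40, adjusted p = 0.0171). The day 28 call was lost without replicate 2 of that day (adjusted p = 0.121). Collagenase 3, Mmp13, was detected on 5 of 24 arrays and Mmp28 on 8, and neither was called in any comparison. Hepatocyte replicate 1 stood apart for Mmp13, at 6.14 beside 4.73 to 4.86 in the other 3.

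**Figure D4:**
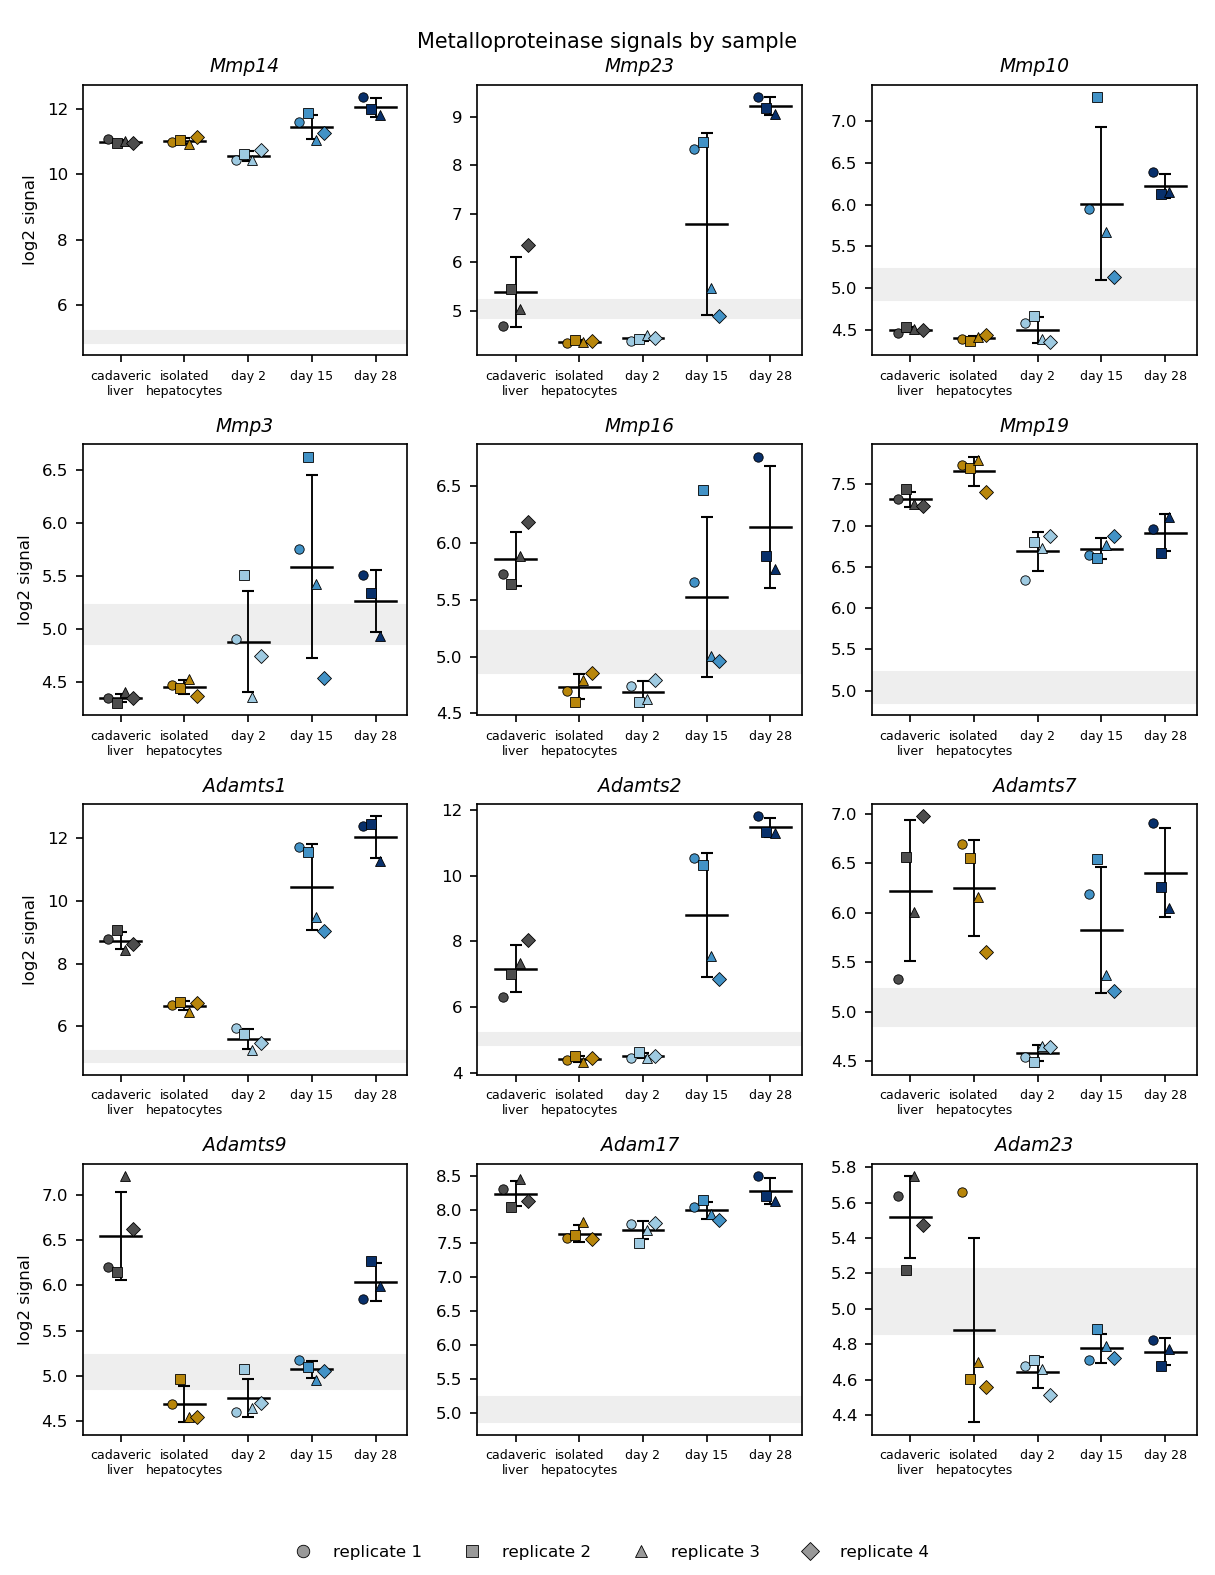
Log2 signal (vertical axis, scaled to each gene) of 6 MMPs, 4 ADAMTS proteases and 2 ADAMs in every sample of the 5 groups (horizontal axis); symbols are samples, black lines are group means with SD bars (n = 3 or 4), and the grey band spans the lowest detected signal of the arrays. Adamts2 falls to background in isolated hepatocytes and on day 2 and reaches 11.29 to 11.81 on day 28. Adamts9 has a day 28 mean of 6.03 beside 6.54 in liver, with overlapping samples.

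The ADAMTS family held the widest changes. Adamts1, a protease of aggrecan and versican, was detected on every array. It read 8.79, 9.07, 8.42 and 8.63 in liver, 6.68, 6.77, 6.47 and 6.75 in hepatocytes and 5.95, 5.76, 5.25 and 5.46 on day 2, then 11.70, 11.55, 9.47 and 9.03 on day 15 and 12.37, 12.44 and 11.28 on day 28. The hepatocyte and day 2 samples were below all livers and the day 28 constructs above them. It was 8.70-fold lower on day 2 (-3.12 ± 0.45, adjusted p = 8.89e-06) and 9.86-fold higher on day 28 (3.30 ± 0.49, adjusted p = 1.39e-05) than in liver, which made it 85.8-fold higher on day 28 than on day 2 (adjusted p = 1.54e-08). The rise from day 2 to day 15 was 28.5-fold with all 4 constructs (adjusted p = 2.08e-07), 64.8-fold with replicates 1 and 2 alone and 12.5-fold with replicates 3 and 4 alone. The further rise to day 28, 1.59 (adjusted p = 0.046), fell to 0.40 against replicates 1 and 2 alone (adjusted p = 0.691) and its call was lost when any of 16 samples was left out (adjusted p = 0.0523 to 0.183).

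Adamts2, the proteinase that removes the amino-terminal propeptide of fibrillar procollagens, was detected in every liver (6.31, 7.01, 7.33 and 8.04) and on no array of hepatocytes (4.32 to 4.52) or day 2 (4.46 to 4.64). It read 10.53, 10.33, 7.55 and 6.85 on day 15 and 11.81, 11.33 and 11.29 on day 28. All 3 day 28 constructs were above every other sample. Adamts2 was at least 4-fold lower in hepatocytes (adjusted p = 0.00231) and at least 4.42-fold lower on day 2 (adjusted p = 0.000792) than in liver. On day 28 it was 19.8-fold higher than in liver (4.30 ± 0.64, adjusted p = 1.51e-05) and at least 87.3-fold higher than on day 2 (adjusted p = 1.12e-07). The day 15 difference from liver was 1.64 (adjusted p = 0.0248), made up of 3.26 in replicates 1 and 2 alone and 0.03 in replicates 3 and 4 alone (adjusted p = 0.951). That call was also lost without liver replicate 1 (adjusted p = 0.0807) or 2 (adjusted p = 0.0517), and without day 15 replicate 1 (adjusted p = 0.11) or 2 (adjusted p = 0.103). The other procollagen proteinases of the family on the array, Adamts3 and Adamts14, were detected nowhere.

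Adamts7, which cuts cartilage oligomeric matrix protein, dropped to background on day 2 and came back. It read 5.33, 6.57, 6.01 and 6.97 in liver and 6.70, 6.55, 6.16 and 5.61 in hepatocytes, 4.49 to 4.66 on day 2 with no array detected, 6.19, 6.54, 5.37 and 5.21 on day 15 and 6.91, 6.26 and 6.05 on day 28. It was at least 2.29-fold lower on day 2 than in liver (adjusted p = 0.000345) and at least 2.6-fold higher on day 28 than on day 2 (adjusted p = 0.000405). The livers and day 28 constructs overlapped, with a difference of 0.18 (adjusted p = 0.69). Adamts9, another versican protease, moved less far back. It read 6.21, 6.14, 7.21 and 6.62 in liver, was detected on no hepatocyte array and 1 of 6 day 2 arrays, and read 5.18, 5.10, 4.95 and 5.05 on day 15 and 5.85, 6.26 and 5.99 on day 28. It was at least 2.59-fold lower in hepatocytes (adjusted p = 4.38e-07) than in liver, and also lower on day 2 (adjusted p = 1.33e-07). It rose by 0.97 from day 15 to day 28 (adjusted p = 0.00509), a call not made with day 15 replicates 1 and 2 alone (0.90, adjusted p = 0.0702). On day 28 the constructs overlapped the livers. The remaining Adamts9 difference of -0.51 (adjusted p = 0.0376) lost the call without liver replicate 3 (adjusted p = 0.137) or 4 (adjusted p = 0.0701), or without day 28 replicate 1 (adjusted p = 0.142) or 3 (adjusted p = 0.0911). It was also lost with no detection filter (adjusted p = 0.0549).

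The remaining ADAMTS members lay near background. Adamts5 and Adamts4, known as aggrecanases, were detected on 5 and 10 of the 24 arrays. Adamts5 read 4.76, 4.82, 5.30 and 5.96 on day 15, higher in replicates 3 and 4, the reverse of the pattern in Adamts1, Adamts2 and Adamts7. It was at least 1.13-fold above day 2 (adjusted p = 0.00652), and this call rests on replicates 3 and 4. With day 15 replicates 1 and 2 alone the gene did not pass the filter and was not tested. Adamts4 was called in no comparison. Adamts12, a relative of Adamts7, was undetected in liver and hepatocytes and read 5.34, 5.13 and 5.13 on day 28, at least 1.15-fold above liver (adjusted p = 0.0121), a call that was lost without day 28 replicate 1 (adjusted p = 0.0538).

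ADAM family members moved by less than 1 log2 unit in every comparison on the probe that stood for the gene. Adam17, the sheddase of tumour necrosis factor, read 8.31, 8.04, 8.45 and 8.13 in liver and 7.56 to 7.82 in hepatocytes, 7.51 to 7.81 on day 2, 7.85 to 8.13 on day 15 and 8.12 to 8.49 on day 28. It was lower in hepatocytes (-0.59 ± 0.11, adjusted p = 0.000798) and on day 2 (-0.53 ± 0.11, adjusted p = 0.000454), without overlap with liver, and rose by 0.57 from day 2 to day 28 (adjusted p = 0.000697). Adam10, a sheddase of Notch and cadherins, was higher than in liver (4.88 to 5.14) in all 4 other groups, by 0.48 to 0.64 (largest adjusted p = 0.00303). This probe was near background in liver, with 3 of 4 arrays detected. The second Adam10 probe was detected in no liver (4.54 to 4.99) and on 1 of 4 hepatocyte arrays. In hepatocytes it read 5.24, 4.78, 4.61 and 5.03 and overlapped the livers. It was at least 2.13-fold above liver on day 15 (5.89, 6.15, 6.02 and 6.30) and at least 1.41-fold above it on day 28 (5.62, 5.59 and 5.27). Between those days the second probe fell by 0.60 (adjusted p = 0.0255 with all probes tested), whereas the first probe was not called (adjusted p = 0.994).

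Adam28, known from lymphocytes, was detected on no array of liver or hepatocytes and on every construct array. It read 5.08 to 5.40 on day 2, 5.25 to 5.73 on day 15 and 4.96, 5.35 and 5.32 on day 28, at least 1.18-fold, 1.4-fold and 1.16-fold above liver (adjusted p = 0.00332, 5.76e-05 and 0.00938). The day 28 call was lost without replicate 2 of that day (adjusted p = 0.0552). Adam23, an ADAM without an active catalytic site, went the other way. It read 5.22 to 5.75 in liver and was detected on 0 of 6 arrays on day 2, 1 of 5 on day 15 and 0 of 5 on day 28, and was lower than in liver at least 1.41-fold on day 2 (adjusted p = 0.000357) and at least 1.56-fold on day 28 (adjusted p = 0.0027), and also lower on day 15 (adjusted p = 0.00175). In hepatocytes 3 samples were at 4.56 to 4.70 and replicate 1 was at 5.66. That comparison (1 of 4 arrays detected, adjusted p = 0.0155) lost the call without hepatocyte replicate 2 (adjusted p = 0.051) or 4 (adjusted p = 0.0587). Adam6, Adam7 and Adam15 ranged from 4.85 to 6.05 and were called in no comparison.

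Over the 29 genes tested on day 15, replicates 1 and 2 both lay above replicates 3 and 4 for 14, both below for 5 and on neither side for 10. The 14 included Timp1, Timp2, Reck, Mmp3, Mmp10, Mmp14, Mmp16, Mmp23, Adamts1, Adamts2 and Adamts7. The 5 were Adam6, Adamts5, Mmp9, Mmp11 and Mmp19. For Timp1, Reck and Adamts2, replicates 1 and 2 were above every liver. Replicates 3 and 4 were above every liver for Timp1, below every liver for Reck and within the range of the livers for Adamts2.

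Genes that activate, inhibit or work beside metalloproteinases were taken from a list of 46, of which 35 were on the array and 31 were tested. Of these, 0 were higher and 9 lower in isolated hepatocytes than in liver, 9 higher and 16 lower on day 2, 11 higher and 8 lower on day 15 and 16 higher and 9 lower on day 28. Among all genes 22.7%, 60.6%, 58% and 57.1% were called in these comparisons. Of all genes 11.3%, 34.5%, 31.4% and 29.5% were higher, and 11.3%, 26.1%, 26.5% and 27.6% were lower. The median difference on day 28 was 0.45, beside -0.02 over all genes. From day 2 to day 28, 17 rose and 4 fell, while 20.6% of all genes rose and 30.9% fell. The broad protease inhibitor alpha-2-macroglobulin, A2m, was already 64.9-fold above liver on day 2 (adjusted p = 1.51e-09). On day 28 its mean was 14.81 beside 7.47 in liver (adjusted p = 4.17e-10), and since the highest signal on the arrays was 14.96, a fold there may be understated. Cd44, a hyaluronan receptor that holds MMPs at the cell surface, was 6.13-fold higher on day 28 (adjusted p = 6.48e-08). Tspan5, a tetraspanin that binds ADAM10, was 2.53-fold higher (adjusted p = 2.53e-07). The membrane peptidase Dpp4 was 3.05-fold lower (adjusted p = 1.51e-07).

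In bulk RNA, fewer cells of a type and less RNA per cell cannot be told apart, so marker lists were read beside the members. The summed signal of 9 hepatocyte genes was 17.27 to 17.35 in liver and 16.91 to 17.24 in constructs on the log2 scale, and all 9 were detected on every array. Its brightest genes, Alb, Tf, Serpina1, Ttr and Fgb, had liver means of 14.7 to 14.9. The highest signal on the arrays was 14.96, so a change in the sum may be understated. On day 28, 3 of the 9, Hnf4a, Cps1 and Asgr1, were lower than in liver. Mean Hnf4a was 7.65 in liver and 5.77 on day 28, and mean Cps1 was 12.62 and 10.55. Asgr1 fell by less, and the other 6 were not called. The stellate cell and myofibroblast list (12 genes, 9 on the array and tested) was lower in hepatocytes and on day 2 and higher on day 28, as were Timp2, Reck, Adamts1 and Adamts2. Timp1 (mean 8.21 on day 2) was not called against liver on that day, when the list was at its lowest. Its day 2 replicates 1 and 2 (8.61 and 8.92) lay within the range of the livers and replicates 3 and 4 (7.55 and 7.75) below it. Timp3 was called in no comparison. Of the 9, 7 were lower in hepatocytes, 6 lower on day 2, 4 higher and 3 lower on day 15 and 7 higher and 1 lower on day 28 than in liver, and all 9 rose from day 2 to day 28. Its summed signal was 12.05 to 12.96 in liver, 9.19 to 9.63 in hepatocytes and 8.98 to 9.13 on day 2. On day 15 it was 14.73, 15.16, 12.73 and 12.26, which splits the constructs into the same pairs, and on day 28 it was 15.24, 14.72 and 14.40. The collagen gene Col1a1 was detected on no array of hepatocytes or day 2 and on every array of day 15 and day 28. Dcn, in contrast, was detected in every liver and on no array of hepatocytes, day 2 or day 15. Tagln, Thy1, Des and Lum had the lowest adjusted p on day 28, led by Tagln at 4.65 above liver (adjusted p = 1.31e-05). The part of this list in the members' changes was not tested.

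**Figure D5:**
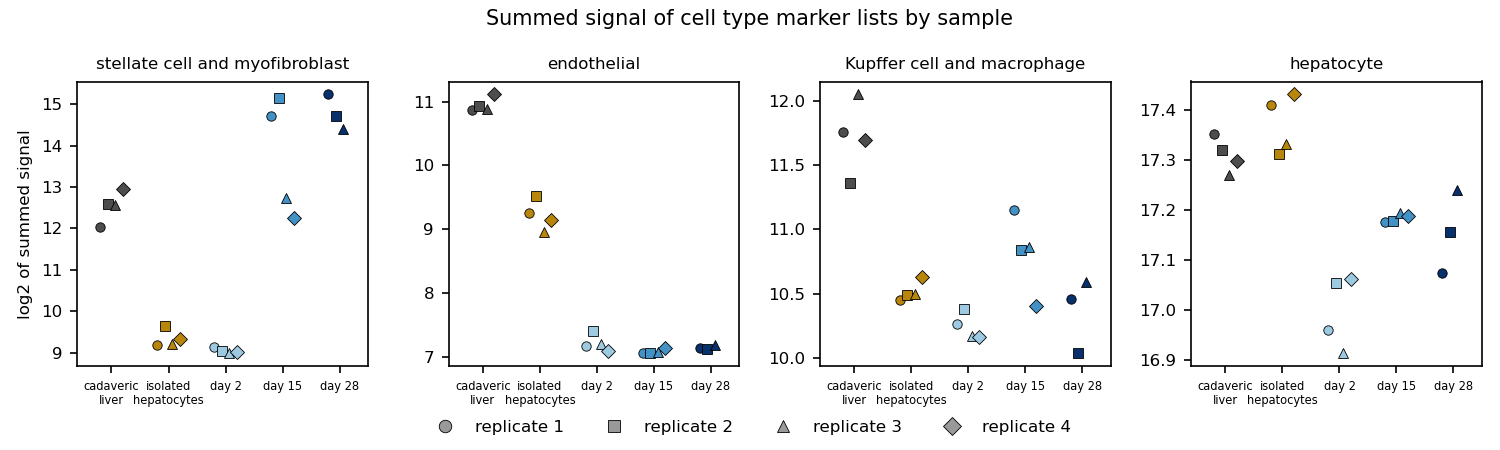
Log2 of the summed signal (vertical axis, scaled to each list) of 4 cell type marker lists in every sample of the 5 groups (horizontal axis); symbols are samples. The stellate cell and myofibroblast list is at 8.98 to 9.63 in isolated hepatocytes and on day 2 and splits the day 15 constructs, while the endothelial list is at 7.05 to 7.40 in all constructs.

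All 4 endothelial genes tested were lower than in liver in every other group, and on day 28 Lyve1 was detected on 1 of 5 arrays, Vwf on none, Tek on 2 and Tie1 on all, and the summed signal of the 5 on the array fell from 10.86 to 11.11 in liver to 7.05 to 7.40 in constructs. Of 6 Kupffer cell and macrophage genes, 5 were lower than in liver in each other group, with Adgre1 and Marco detected on no day 28 array, where Mrc1 and Cd163 were also lower, and Cd14 was higher on day 15. Of 7 other leukocyte genes tested, 5 were lower on day 28 (Nkg7, Cd79b, Ptprc and Cd8a first) and 0 were higher. Among 4 cholangiocyte genes, Epcam and Cldn4 were higher on day 28 than in liver and Krt19 and Krt7 were not called. All 4 rose from day 2 to day 15 (median 1.70) and from day 2 to day 28 (median 1.27), alongside the members that rose. Krt19 was detected in every liver, on no array of hepatocytes or day 2 and on every array of days 15 and 28, as were Timp2 and Adamts2. The list's summed signal was 9.33 to 10.23 in liver, 9.07 to 9.38 in hepatocytes, 9.64 to 9.93 on day 2 and 11.54 to 11.66 on day 28. On day 15 it was 11.81, 11.95, 12.42 and 12.30. Replicates 3 and 4 were thus above replicates 1 and 2, the reverse of the stellate cell list and of Timp1, Timp2, Reck and Adamts2. Of the 2 mesothelial genes, Wt1 was higher and Msln lower on day 28. The part of these lists in the members' changes was not tested.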

How the data were processed

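For every array the authors deposited bead intensities on a linear scale, each with a detection p-value. They also deposited log2 values, made in limma by background correction and quantile normalization (version not given in the sources used here), and these were analysed. Detection p-values came from the intensity table, whose arrays were identified by their values. After the normalization was repeated (offset 16, 842 control rows dropped), each lay within 0.00628 of 1 array of the sample records and at least 0.842 from any other. The replicate number differed on 14 of 24 arrays, within groups, and the records' numbers were used. A second table of log2 values was not used.

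Of 22523 probes, 13793 carried a gene name. Probes detected in at least 3 of 19 samples were kept (12516), and the brightest stood for its gene (8825). Groups were compared in R 4.3.3 with limma 3.58.1. Bead arrays compress changes near background and near saturation, and the number of arrays limits the precision. The procedure was tested on simulated data. Named are every Timp and Reck, each other member called without sample overlap in a comparison (per sample for up to 10 a family), the rest by name and range, and of each list the 4 genes with the lowest adjusted p on day 28. The members and lists were chosen with earlier results of these data known. Alternatives covered normalization, filter, probes tested, spread model, duplicate arrays, the replicate block and each sample left out.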

Additional observations from a re-analysis of the deposited data

Results flagged for a closer look

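Dixon's test was applied to the 116 groups of 4 samples formed by the 29 tested genes. In 8 groups (6.9%) 1 sample stood apart, its gap to the nearest sample divided by the range of the group exceeding the 95% critical value, where chance gives about 5%. Adam15 stood apart in cadaveric liver replicate 4 (5.32, nearest 5.64, ratio 0.884) and in day 2 replicate 4 (5.70, nearest 5.47, ratio 0.888). Mmp9 stood apart in isolated hepatocyte replicate 3 (5.45, nearest 5.58, ratio 0.856) and in day 2 replicate 4 (5.90, nearest 5.38, ratio 0.905). Mmp13 (6.14, nearest 4.86, ratio 0.906) and Adam23 (5.66, nearest 4.70, ratio 0.872) both stood apart in isolated hepatocyte replicate 1. Adamts12 stood apart in isolated hepatocyte replicate 3 (4.90, nearest 4.42, ratio 0.916), although no hepatocyte array detected it. Adamts5 stood apart in day 2 replicate 1 (4.43, nearest 4.53, ratio 0.885), where all values were at background.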

How the results depend on the processing

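Of 91 called gene comparisons, 71 were called whichever 1 sample was left out and 20 were lost without at least 1 sample. Counts of called members then ranged from 11 to 12 in hepatocytes, 13 to 14 on day 2, 13 to 16 on day 15 and 13 to 17 on day 28 against liver, and from 3 to 10 from day 15 to day 28. Counts on the related protease list from day 15 to day 28 ranged from 4 to 10, with 7 in the analysis reported. With constructs alone in the model, 4 members and 4 related genes were called from day 15 to day 28. With day 15 replicates 1 and 2 alone both counts were 2, and with replicates 3 and 4 alone both were 11. Among differences called with all samples or under the alternative, the sign turned for Mmp23 on day 15 with replicates 3 and 4 alone (-0.20), for Reck on day 15 with replicates 1 and 2 alone (0.90) and for Adam10 from day 15 to day 28 with constructs alone (-0.60), where the other Adam10 probe stood for the gene. Several differences that were not called with all samples also differed in sign between the day 15 pairs. Mmp16 on day 15 differed from liver by -0.34 with all samples and by 0.20 with replicates 1 and 2 alone (adjusted p = 0.511). With replicates 3 and 4 alone it differed by -0.88, which was called (adjusted p = 0.00218). For Mmp23 and Reck the cause was not tested. Between samples of different groups with the same replicate number, correlations of deviations were -0.28 to 0.27 and exceeded 0.1 in 5 of 36 pairs. All 5 joined constructs of different days. Replicates 1, 3 and 4 of days 2 and 15 gave 0.18, 0.13 and 0.16. Replicates 1 and 3 of days 15 and 28 gave 0.27 and 0.23. The lowest value, -0.28, was also between constructs, replicate 2 of days 15 and 28. The labels do not say whether constructs of the same number share an origin. These correlations and the replicate block use the records' numbers, which differ from the intensity table on 14 of 24 arrays. With the replicate block, 11, 13, 14 and 18 members were called in hepatocytes and on days 2, 15 and 28 against liver, and 13, 8 and 12 between days 2 and 15, 15 and 28, and 2 and 28. Under the block the related list gave 9, 25, 18 and 25 calls against liver and 16, 5 and 20 between days. The fall of Mmp9 from day 2 to day 28 was lost under the block (adjusted p = 0.0533) and with the first array of each construct (adjusted p = 0.103). The methods' one-way analysis of variance over days called 13 members after adjustment, beside 15 by limma. Signals near background limit most genes below a value of about 5.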
